A study of Arabidopsis thaliana with 18 samples.

Results

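Seeds of the Arabidopsis thaliana accession C24 were compared with seeds of Col-0, the accession of the reference genome, at 10-11 days after flower opening. The comparison rests on 6 of the 18 arrays of the study, the 3 whose titles give C24 and the 3 whose titles give Col-0 at that age. The study measured RNA of developing seeds from both accessions at 8-9, 10-11 and 12-13 days on Affymetrix arrays, which report on transcripts through probe sets, each a group of short probes. Plants of both natural, untreated accessions grew with 16 h of light per day, and flowers were tagged when they opened. A replicate pooled the seeds dissected out of 48 siliques (the seed pods), 8 siliques from each of 6 plants, and every pool drew on both growth experiments. The numbers of 10 and of 11 day old siliques in a pool are not known here. The pools are labelled as biological replicates, without a statement that those of a group came from different plants, and p-values measure only how far such pools spread, which may be technical.

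At this age an Arabidopsis seed is passing from growth to maturation. The embryo fills the seed and lays down storage proteins and oil, the endosperm is largely used up, cell division stops, and the green embryo begins to lose its photosynthetic transcripts. Late in maturation the seed makes proteins that protect it during drying, and the seed coat and its walls are finished. Differences between accessions at one age can therefore lie in genes that differ throughout, or in genes that are caught at different points of a steep rise or fall.

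Values are the deposited log2 signals, so a difference of 1 is a 2-fold difference, and positive differences are those in which C24 had the higher signal. The sample titles and the accession and stage characteristics give the groups used here, while in every sample the source name states the opposite accession. The arrays themselves do not settle which field is right, but 18 probe sets were at least 4-fold lower and 9 at least 4-fold higher in the C24-titled arrays at each of the 3 stages, so that the titles split the arrays the same way throughout. If the source names were right, every sign below would turn. The array was designed on the Col-0 genome. A lower signal in C24 can come from less transcript or from a poorer match of C24 transcripts to the probes, and probe set values cannot tell these apart. Across probe sets Pearson's r was 0.9946 to 0.997 between arrays of one accession and 0.9799 to 0.9854 between accessions.

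Of 22746 probe sets, 4074 (17.9%) differed between the accessions at 10-11 days at an adjusted p under 0.05 (limma, fitted to all 18 arrays, Benjamini-Hochberg), and such probe sets are described as called. In C24, 2257 (9.92%) were higher and 1817 (7.99%) lower. A difference of at least 2-fold was called in 464 (2.04%), of which 211 (0.928%) were higher and 253 (1.11%) lower in C24. At least 4-fold differences were found in 35 higher and 53 lower probe sets. The median difference over all probe sets was 0.05, and the median size of the called differences was 0.475. The balance of directions depended on the scaling, since 55.4% of the called probe sets were higher in C24 as deposited, 49.5% after a second quantile normalization and 63.4% when the arrays were scaled to 11 reference genes. In 8028 probe sets (35.3%) the 3 arrays of one accession lay wholly above the 3 of the other, among them 3965 of the 4074 that were called. In RNA of whole seeds, fewer cells of a type and less RNA per cell cannot be told apart.

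Among the 14 genes with the highest differences, AT4G29200 read 9.83, 9.83 and 9.93 in the C24 pools and 4.55, 4.23 and 4.37 in the Col-0 pools, a log2 difference of 5.48 (SE 0.19, limma adjusted p = 1.94e-14). AT1G50290 read 9.01, 9.25 and 9.53 in C24 against 4.88, 4.68 and 5.03 in Col-0, a difference of 4.40 (SE 0.14, limma adjusted p = 6.29e-15). In both genes the Col-0 pools were close to the bottom of the scale, where the array flattens differences, and the C24 pools were bright, with no overlap. No detection calls were used here, so the sizes of these differences are not exact. AT1G48800, of the terpene synthase family, whose members make volatile and defensive terpenes, read 9.14, 9.04 and 8.85 in C24 against 5.72, 5.37 and 5.41 in Col-0 (3.51, SE 0.12, limma adjusted p = 2.05e-14). GSTU26, a glutathione transferase of the tau class, read 9.54, 9.63 and 9.37 against 6.37, 6.25 and 6.30 (3.21, SE 0.10, limma adjusted p = 5.86e-15).

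The cathepsin B-like cysteine protease gene AT1G02300 was at 7.85 ± 0.16 in C24 and 4.91 ± 0.20 in Col-0 (mean ± SD, n = 3), a difference of 2.94. AT3G55470, which encodes a protein with a C2 domain, was 2.53 higher in C24, the exostosin family gene AT5G41250 2.46 and the CHCH family gene AT5G09570 2.35. The berberine bridge enzyme-like gene AT5G44380 was 2.17 higher. AT1G63540, AT5G15360, AT2G15960 and AT1G64130, for which no role is given here, were higher by 2.66, 2.62, 2.51 and 2.49. In all of these the lowest C24 pool lay above the highest Col-0 pool by a wide margin. AT2G18370, of the lipid transfer protein family, was the exception. It read 9.11, 10.50 and 10.62 in C24 and 9.05, 5.95 and 8.61 in Col-0, so that the highest Col-0 pool almost met the lowest C24 pool (2.21, SE 0.49, limma adjusted p = 0.00274). Without replicate 2 of Col-0 its difference was 1.25.

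The lowest signals in C24 relative to Col-0 were led by a germin-like protein gene, AT3G04200. Germin-like proteins are secreted into the cell wall. It read 6.96, 7.13 and 7.74 in C24 and 11.61, 11.60 and 11.72 in Col-0, a difference of -4.37 (SE 0.17, limma adjusted p = 9.18e-14). AT5G38180, of the family of lipid transfer and 2S albumin-type proteins, read 4.75, 5.18 and 4.86 in C24 against 9.35, 9.35 and 9.06 in Col-0 (-4.32, SE 0.54, limma adjusted p = 5.2e-06). AT1G28590, a GDSL-type esterase gene, read 5.74, 5.85 and 6.23 against 9.95, 10.22 and 10.00 (-4.12, SE 0.18, limma adjusted p = 7.64e-13). The pectin methylesterase gene AT5G51490, whose product removes methyl groups from wall pectin, read 8.15, 8.14 and 8.50 against 11.83, 11.91 and 11.91 (-3.62, SE 0.11, limma adjusted p = 5.86e-15). These 4 transcripts were bright in Col-0, and 2 of them, AT3G04200 and AT5G51490, kept a moderate signal in C24 while the other two sat near 5 to 6.

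Also lower were AT1G17860, a Kunitz-type trypsin inhibitor gene (-3.32), AT4G14980, of the C1 domain family (-3.13), the late embryogenesis abundant protein gene AT2G23110 (-2.56), CuAO1, a copper amine oxidase that oxidises polyamines (-2.55), and the cystatin-like gene AT1G03710 (-2.50). CuAO1 read 4.48, 4.62 and 4.46 in C24 and 7.06, 6.94 and 7.22 in Col-0, and AT2G23110 read 4.31, 4.72 and 4.45 against 6.74, 6.82 and 7.58. In these genes the C24 pools were uniformly dim and the Col-0 pools uniformly brighter. AT1G23960, AT4G20480, AT2G41650, AT3G19520 and AT2G14460, whose roles are not given here, were lower by log2 differences of -3.66, -3.51, -3.51, -3.39 and -2.81. Differences of dim genes are compressed by the array, so the order of these sizes is not exact.

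**Figure D1:**
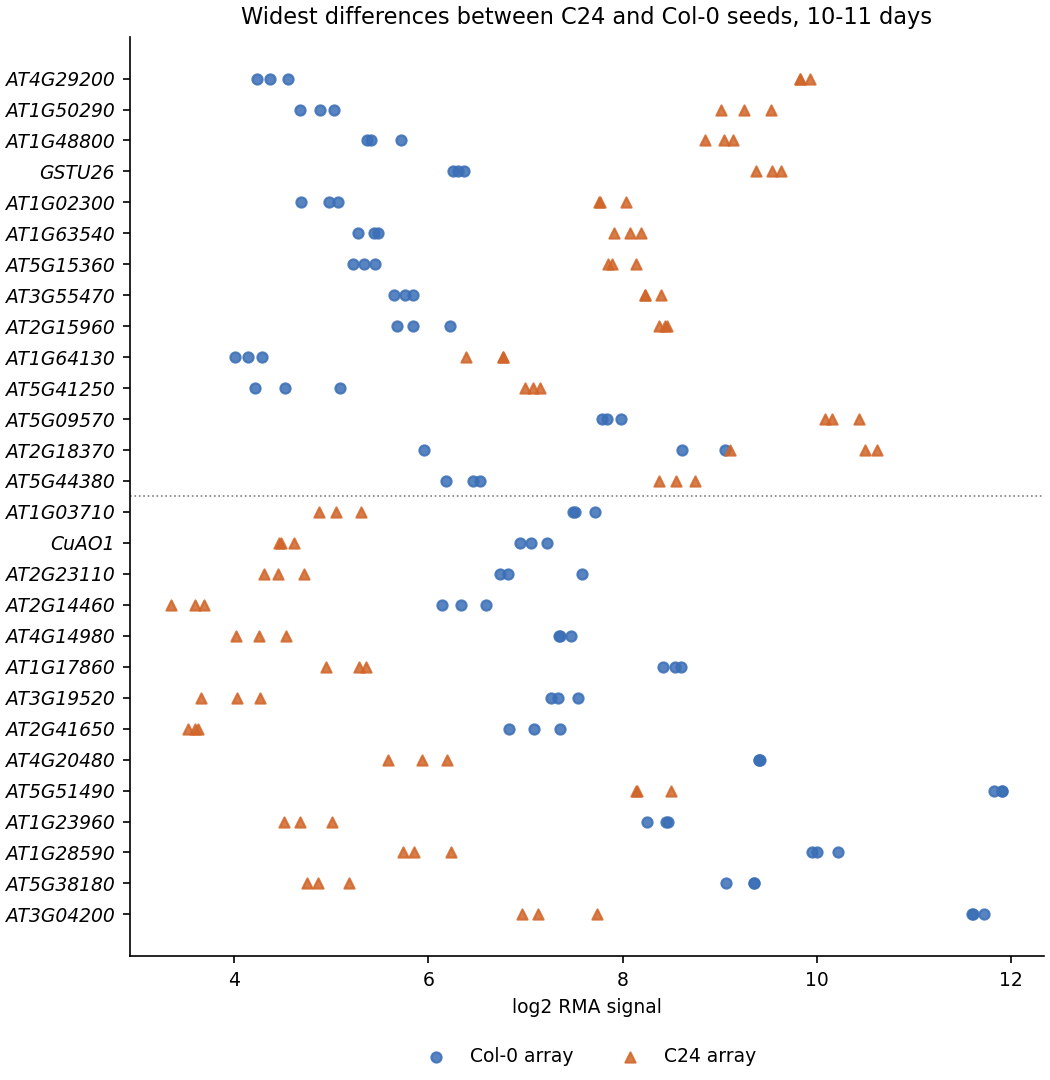
Log2 signal of the 28 genes with the widest differences between C24 (triangles) and Col-0 (circles) seeds at 10-11 days, 1 marker per array and 3 arrays per accession; the dotted line separates 14 genes higher in C24 from 14 lower. The markers of the accessions are apart in every gene, least so in AT2G18370, where a Col-0 array at 9.05 lies beside a C24 array at 9.11.

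Most of these differences were also present at the other stages. Of the 211 probe sets at least 2-fold higher in C24, 170 (80.6%) had the same sign at 8-9 days and 132 (62.6%) were also called there, where 19.4% of all probe sets passed (11.7% with C24 higher and 7.7% with C24 lower). At 12-13 days, where 22.0% of all probe sets passed (12.2% with C24 higher and 9.79% with C24 lower), 194 (91.9%) had the same sign and 171 (81.0%) were called. Of the 253 at least 2-fold lower, 237 (93.7%) had the same sign at 8-9 days and 247 (97.6%) at 12-13 days, with 190 (75.1%) and 215 (85%) called. For comparison, 60.1% and 62.3% of all probe sets had the same sign at 10-11 as at 8-9 and at 12-13 days. The 3 stages share no arrays. AT4G29200 differed by 5.79, 5.48 and 5.00 at the 3 stages in order of age, AT1G50290 by 4.04, 4.40 and 4.61, AT1G23960 by -3.46, -3.66 and -4.13, and AT5G38180 by -4.53, -4.32 and -4.05. In none of these 4 was the difference at 10-11 days called different from that at another stage in the test of the difference between stages (limma adjusted p of 0.262 to 0.914). The C24 pools of 8-9 days spread widely for AT5G38180 (5.98 ± 2.0, SD, n = 3). Its stage differences had an SE of 0.77, so the test cannot show that its difference was constant. Other genes among the widest did change in that test. AT1G48800 (1.66 at 8-9 days, limma adjusted p = 6.44e-07), AT3G04200 (-2.36, 1.14e-05) and CuAO1 (-0.46, 2.37e-09) were closer together at 8-9 days. AT2G23110 was not called there (-0.19) and was wider apart at 12-13 days (-3.73, limma adjusted p = 0.00798). Wider apart at 8-9 than at 10-11 days were AT1G02300 (4.13, limma adjusted p = 0.00143) and AT5G41250 (5.47, 7.36e-07). AT2G15960 was wider apart at 12-13 days (3.60, limma adjusted p = 0.00234). AT5G44380 was closer at 12-13 days (0.71, limma adjusted p = 0.000253).

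A smaller set of differences changed with stage, and few 2-fold ones were called at 10-11 days only. Of the 211 probe sets at least 2-fold higher and the 253 lower in C24, 27 and 28 were not called at either other stage. Of these, 21 and 9 also differed from both other stages in the tests of the difference between stages. The difference between the accessions was not the same at 10-11 as at 8-9 days in 1488 probe sets (6.54%, with 3.11% positive and 3.43% negative), and not the same at 10-11 as at 12-13 days in 1346 (5.92%, with 3.32% positive and 2.6% negative), in contrasts of the same fit that share the 10-11 day arrays. The second count fell to 754 without replicate 2 of Col-0, to 854 without replicate 1 of Col-0 and to 881 without replicate 2 of C24. In 282 probe sets (1.24%) the difference at 10-11 days departed from both other stages in the same direction. Among these, the difference was also called at 10-11 days, with that sign, and larger in size than at either other stage in 119 probe sets higher and 74 lower in C24, of which 45 and 26 were at least 2-fold. For 101 of these probe sets 1 gene is listed. The genes given next were picked from these 101 after their values were seen. They leave out the widest members, GSTU26 (3.21), AT1G74010 (2.11), AT1G28590 (-4.12) and AT1G35612, which moved otherwise. In order of age Col-0 stood at 6.37, 6.31 and 6.77 for GSTU26 and at 4.39, 4.41 and 4.7 for AT1G74010. AT1G35612 peaked in Col-0 at 10-11 days (4.73, 5.62 and 4.67). AT1G28590 was also lower in C24 at 8-9 (-2.68) and 12-13 days (-2.72). The picks therefore do not describe the whole set.

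AT1G14930, of the family of major latex protein-like proteins, read 7.42, 7.98 and 7.97 in C24 and 5.83, 5.57 and 6.07 in Col-0 at 10-11 days, a difference of 1.97 (SE 0.14, limma adjusted p = 1.36e-09). At 8-9 days it stood at 3.67 in C24 and 4.03 in Col-0, and at 12-13 days at 10.84 and 10.40 (means of 3 arrays). Both accessions thus began near the floor, and the widest gap lay at 10-11 days. At 12-13 days a smaller difference of 0.44 was still called (limma adjusted p = 0.026). AT1G30700, a berberine bridge enzyme-like gene, read 7.67, 8.68 and 8.06 against 6.39, 5.31 and 6.86 at 10-11 days (1.95, SE 0.26, limma adjusted p = 1.11e-05), with means of 4.04 and 4.06 before and 10.54 and 10.13 after. AT2G18480, of the sugar transporter family, read 8.48, 8.73 and 8.72 against 6.81, 6.31 and 7.30 (1.84, SE 0.16, limma adjusted p = 2.85e-08), between means of 5.19 and 5.47 at 8-9 days and 9.50 and 9.14 at 12-13 days. A like rise was seen in AT4G19720, of the chitinase family (1.74), in CCR2, a cinnamoyl-CoA reductase of lignin synthesis (1.58), and in AT3G48450 (1.73). At 12-13 days CCR2 (0.63) and AT3G48450 (0.43) were still called higher in C24, and AT4G19720 (0.18) was not called.

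Among the genes lower in C24 at this age were genes that were falling. EXO, a gene of cell expansion that responds to brassinosteroid hormones, read 6.55, 5.98 and 5.77 in C24 and 8.01, 7.96 and 7.84 in Col-0 at 10-11 days (-1.84, SE 0.17, limma adjusted p = 5.9e-08). Its means were 8.42 in C24 and 8.37 in Col-0 at 8-9 days, and 5.66 and 5.86 at 12-13 days. At 10-11 days the C24 pools lay nearer to their 12-13 day mean. The Col-0 pools, with a mean of 7.94, lay nearer to their 8-9 day mean. AT5G51950, of the GMC oxidoreductase family, read 5.36, 4.87 and 5.24 against 7.03, 7.44 and 6.77 (-1.92, SE 0.17, limma adjusted p = 2.63e-08), on the way from 9.05 and 9.46 to 3.48 and 4.27. AT5G19940 read 6.19, 6.30 and 6.16 against 7.43, 7.70 and 7.16 (-1.21, SE 0.18, limma adjusted p = 4.59e-05) and fell in both accessions over the course. The reverse order also occurred, since CXE18, a carboxylesterase family gene, was lower in C24 (8.57, 8.45 and 8.60 against 9.68, 9.82 and 9.58, a difference of -1.15) although it rose with age in both accessions.

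**Figure D2:**
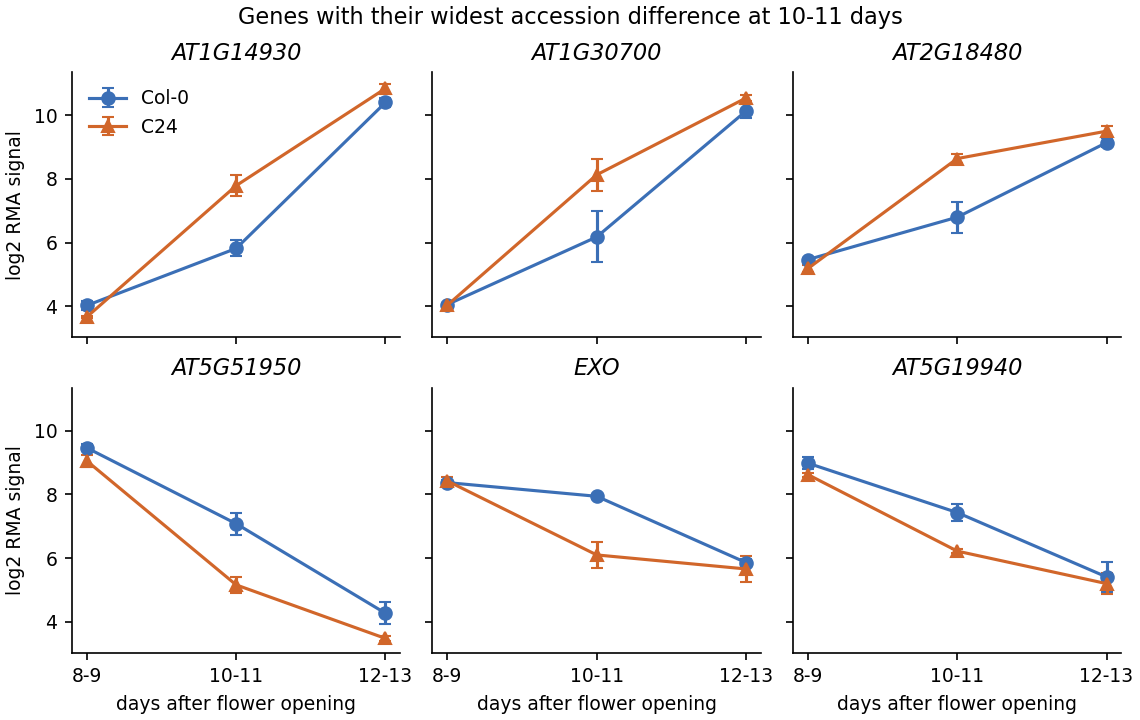
Log2 signal of 6 picked genes at 8-9, 10-11 and 12-13 days after flower opening in Col-0 (circles) and C24 (triangles). Points are means and bars SD of 3 arrays. The upper 3 genes rise and the lower 3 fall, and the accessions are farthest apart at 10-11 days, where C24 is the higher in the upper and the lower in the lower panels.

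The pattern of these picked genes was counted over all probe sets that moved the same way in both accessions between the end stages. The size of that move came from the end stages alone. The fit that tested it pooled the variance of the arrays of every stage, those of 10-11 days included. Of the 1124 probe sets that rose at least 2-fold from 8-9 to 12-13 days in both accessions, 458 (40.7%) were called higher and 83 (7.38%) lower in C24 at 10-11 days, against 9.92% and 7.99% of all probe sets. Their median difference was 0.26, while that over all probe sets was 0.05. Of the 1414 that fell at least 2-fold in both, 62 (4.38%) were called higher and 393 (27.8%) lower, with a median difference of -0.18. The median signal of the risers was 8.09, 8.13 and 8.07 in the C24 pools and 7.82, 7.64 and 7.88 in the Col-0 pools, and that of the fallers 6.96, 6.91 and 6.84 against 7.15, 7.29 and 7.01. In both sets the C24 pools lay beyond the Col-0 pools without overlap, on the side toward the later stage. At 12-13 days the median differences were 0.01 for the risers and 0.04 for the fallers. At 8-9 days they were 0.12 and -0.06. There 28.6% of the risers were called higher and 9.07% lower, and 19.9% of the fallers lower and 8.91% higher. Among all probe sets 11.7% were higher and 7.7% lower at that stage. The median signals of the fallers were also apart there, at 8.17, 8.17 and 8.18 in C24 against 8.27, 8.29 and 8.26 in Col-0. Those of the risers overlapped. The lean was thus not confined to 10-11 days, but the arrays of 8-9 and 12-13 days chose the sets. Replicate 2 of Col-0 weighed most on the counts at 10-11 days. Without it 318 risers were called higher, with a median of 0.21, and 238 fallers lower, with a median of -0.12. Without replicate 3 of Col-0, 39 fallers were called higher in place of 62.

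**Figure D3:**
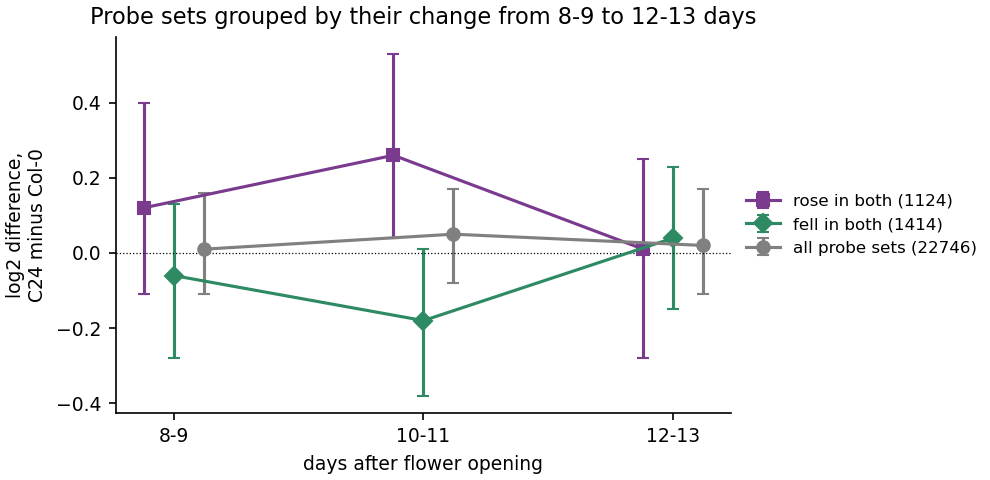
Log2 difference, C24 minus Col-0, at each stage for probe sets that rose (squares) or fell (diamonds) at least 2-fold in both accessions from 8-9 to 12-13 days and for all probe sets (circles); points are medians and bars run from the lower to the upper quartile. The risers are highest, at a median of 0.26, and the fallers lowest, at -0.18, at 10-11 days.

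The genes that differed most were also set against the change with age in each accession. Of the 211 probe sets at least 2-fold higher in C24, 97 (46.0%) rose at least 2-fold in Col-0 from 8-9 to 12-13 days and 11 (5.21%) fell, while 6.99% of all probe sets rose and 8.15% fell. In C24, 117 (55.5%) of them rose and 12 (5.69%) fell, against 5.92% and 7.61% of all probe sets. Of the 253 at least 2-fold lower, 57 (22.5%) rose and 51 (20.2%) fell in Col-0, while 25 (9.88%) rose and 62 (24.5%) fell in C24. The fold changes behind these shares come from the 8-9 and 12-13 day arrays only. The fit that tested them pooled the variance of every stage, and the arrays of 10-11 days chose the sets.

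To place whole arrays, each 10-11 day array was set on the straight line that leads from the mean 8-9 day array (position 0) to the mean 12-13 day array (position 1) of its own accession. The Col-0 pools lay at 0.615, 0.558 and 0.675 and the C24 pools at 0.676, 0.718 and 0.714. The means were 0.616 ± 0.0586 and 0.703 ± 0.0231 (SD, n = 3), a difference of 0.087. The ranges did not overlap but all but touched, at 0.675 and 0.676. The exact two-sided permutation test gave p = 0.1, the smallest value that 3 against 3 arrays allow, so a difference at the level of 0.05 could not be shown with these arrays. On the line of the other accession the difference was 0.141, and leaving out 1 array at a time gave 0.058 (without replicate 2 of Col-0) to 0.116 (without replicate 3 of Col-0). The share of 10 and of 11 day old siliques in each pool is not known, and its part in these positions was not tested.

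**Figure D4:**
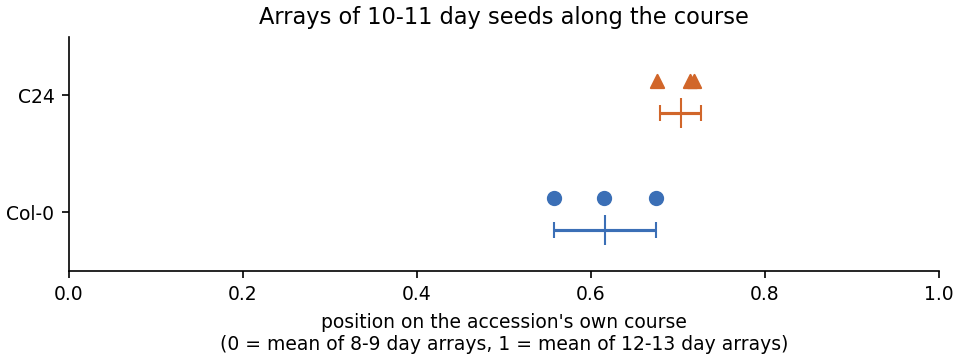
Position of each 10-11 day array on the line from the mean 8-9 day array (0) to the mean 12-13 day array (1) of its own accession; markers are arrays, and the bars below them give mean and SD of 3 arrays. The Col-0 arrays lie at 0.558 to 0.675 and the C24 arrays at 0.676 to 0.718.

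Genes with known work in seeds were read through lists of named loci or of family names, of which only the members with a listed probe set could be used. These were 4 of 22 loci for oil bodies, 3 of 16 for maturation regulators, 3 of 19 for seed coat flavonoids and 8 of 50 for photosynthesis. Each count of called members below stands against 9.92% higher and 7.99% lower, 17.9% in all, among all probe sets. Storage proteins are the nitrogen reserve of the seed, and 5 of the 13 listed loci were measured. By limma, 0 of the 5 measured storage protein genes were called at 10-11 days (median 0.18), and 1 was higher at an unadjusted p under 0.05. All 5 were called higher in C24 at 8-9 days. The cupin family gene AT4G36700, the member with the smallest p, read 13.17, 12.94 and 12.94 in C24 against 12.80, 12.78 and 12.73 in Col-0 (limma adjusted p = 0.106). The cruciferin family gene AT1G03890 was 1.83 higher in C24 at 8-9 days and 0.20 at 10-11 days (SE 0.33 for the latter).

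Of 4 oil body genes 3 were called higher in C24 (median 0.36), where 9.92% of all probe sets were. AT5G16460, a seipin that shapes oil bodies, read 6.36, 6.53 and 6.27 in C24 against 5.93, 5.36 and 5.90 in Col-0 (0.66, SE 0.14, limma adjusted p = 0.00142), and the oleosin family gene AT2G25890 read 10.47, 10.11 and 10.28 against 9.73, 9.66 and 10.00 (0.49, SE 0.12, limma adjusted p = 0.00594). The third, the oleosin OLEO3, differed by 0.23. Leaving out any array other than replicate 2 of Col-0 ended that call, with values of 0.20 to 0.24, as did the fit to the 6 arrays of this age (limma adjusted p = 0.0745). Of 12 genes of plastid fatty acid synthesis 2 were higher and 1 lower, with a median of -0.01. The neighbouring stearoyl-ACP desaturase genes AT5G16230 and AT5G16240, whose products place the first double bond, were higher by 0.83 and 0.37. The second was not called without replicate 1 of C24 (0.28), replicate 2 of Col-0 (0.35) or replicate 3 of Col-0 (0.36). AT5G10160, a dehydratase of the elongation cycle, was lower (-0.42).

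Late embryogenesis abundant (LEA) proteins protect the drying embryo. Of 37 measured members 3 were higher and 5 lower in C24 (21.6% called, against 17.9% of all probe sets), with a median of 0.06, so the list as a whole did not lean one way. The lower members were wider apart than the higher ones. The neighbouring genes AT2G23110 and AT2G23120 differed by -2.56 and -1.64, the latter reading 9.46, 9.50 and 9.53 in C24 against 11.18, 11.08 and 11.13 in Col-0. COR47, a dehydrin, read 6.29, 6.42 and 6.10 against 7.41, 7.54 and 7.59 (-1.24, SE 0.13, limma adjusted p = 3.69e-07) and differed by -0.04 at 8-9 days. The dehydrin family gene AT4G38410 was lower by a log2 of -0.87. LEA18 and AT2G18340 were higher by 0.66 and 0.62. Without replicate 1 of C24, AT2G18340 was not called (0.41). By limma, 0 of the 3 measured maturation regulators were called, and 0 passed an unadjusted p of 0.05. EEL, a bZIP factor, had the smallest p (0.16, limma adjusted p = 0.338).

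Photosynthesis genes of the nucleus were lower where they were called. Of 8 measured members 4 (50.0%, against 7.99% of all probe sets) were lower and 0 higher in C24 at 10-11 days by limma, with a median of -0.34. At an unadjusted p under 0.05, 6 were lower and 0 higher. At 8-9 days 1 was lower, and at 12-13 days 1 was higher and 1 lower. LHCB4.2, an antenna protein of photosystem II, read 8.35, 8.44 and 8.46 in C24 against 9.04, 9.40 and 9.04 in Col-0 (-0.75, SE 0.13, limma adjusted p = 0.000257). LHCB4.1 read 10.52, 10.61 and 10.57 against 11.10, 11.27 and 10.83 (-0.50, SE 0.10, limma adjusted p = 0.00147). The photosystem I subunits PSAN and PSAE-1 were lower by log2 differences of -0.47 and -0.40. These transcripts were falling in both accessions, LHCB4.2 between the end stages from 9.93 to 7.45 in C24, and in Col-0 from 10.36 to 8.05. In the test of the difference between stages 0 of the 8 were called against 8-9 days and 0 against 12-13 days by limma, while 3 and 4 were lower at 10-11 days at an unadjusted p under 0.05.

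Of 69 probe sets of the plastid genome 30 were lower and 2 higher in C24 (46.4% called against 17.9% of all probe sets), with a median of -0.45. The median was -0.13 at 8-9 days and -0.40 at 12-13 days. psbE, of photosystem II, read 8.53, 8.11 and 8.34 in C24 and 9.69, 9.64 and 9.63 in Col-0 (-1.33, SE 0.16, limma adjusted p = 3.16e-06). psbT read 5.05, 5.26 and 7.21 against 8.00, 7.59 and 8.12 (-2.06, SE 0.37, limma adjusted p = 0.000335), so that replicate 3 of C24 came close to Col-0. petN and ndhG differed by -1.72 and -1.67. Without replicate 1 of C24 neither was called (-1.26 and -1.23), and ndhG also not without replicate 2 of C24 (-1.49) or replicate 3 of Col-0 (-1.43). Pools were uneven here, the median SD of a plastid probe set being 0.336 in C24 and 0.152 in Col-0. The 2 higher ones were clpP, a protease subunit, at 11.59, 11.39 and 11.47 against 10.10, 10.18 and 10.32, and petB, of the cytochrome b6f complex, at 11.44, 11.57 and 11.29 against 10.77, 10.86 and 10.89.

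Most genes of cell division were not called at this age. Of 12 members 0 were higher and 2 lower by limma (16.7% called against 17.9% of all probe sets, median -0.02; 1 was higher and 3 were lower at an unadjusted p under 0.05), and 4 had a mean signal under 5. AUR1, an Aurora kinase of mitosis, read 5.95, 5.48 and 6.03 in C24 against 6.45, 6.61 and 6.11 in Col-0 (-0.57, SE 0.13, limma adjusted p = 0.00354). The histone H2B gene HTB2 read 5.85, 5.43 and 5.08 against 6.48, 6.90 and 5.80, so its groups overlapped, and without replicate 2 of Col-0 it was not called (-0.69). Of 3 genes of seed coat flavonoids 0 were called at 10-11 days by limma, and 1 was higher and 1 lower at an unadjusted p under 0.05. DFR, dihydroflavonol reductase of tannin synthesis, read 7.85, 7.99 and 7.82 against 8.22, 8.26 and 7.99 (-0.27, limma adjusted p = 0.0561), after -0.68 at 8-9 days. Of 4 genes of seed coat mucilage only AT2G22900, a galactosyltransferase of mucilage, was called (-0.31, limma adjusted p = 0.0433), and leaving out any array other than replicate 2 of C24 ended that call (-0.19 to -0.34), as did the fit to the 6 arrays (limma adjusted p = 0.0734) and the scaling to reference genes (limma adjusted p = 0.0942).

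Markers of other tissues were also read. The 5 measured markers of early endosperm, AGL62, AGL91, AGL28, AGL23 and IKU2, had values of 3.19 to 4.63 on the 6 arrays, at the floor of the scale, and their mean per array was 3.61 to 3.74 in C24 and 3.62 to 3.77 in Col-0. By limma 0 of the 5 were called, and 0 passed an unadjusted p of 0.05. Only these 5 of 18 listed loci were measured, and values at the floor in both accessions cannot show whether the share of endosperm differed. Of the silique wall markers only ALC, a factor of the valve margin, was measured, at 6.12, 6.02 and 6.09 in C24 and 5.68, 5.84 and 5.78 in Col-0 (0.31, limma adjusted p = 0.228). With only 6 arrays in the fit ALC was called (limma adjusted p = 0.0243). The part of silique wall tissue in the results was not tested. Among the control probe sets, the difference between the 3′ and 5′ actin sets was 2.80, 2.60 and 2.90 in Col-0 and -0.05, 0.53 and -0.09 in C24. The 3′ set alone carried it, at 12.42, 12.45 and 12.41 in Col-0 against 10.04, 9.75 and 9.65 in C24, while the 5′ sets had means of 9.66 and 9.68. For ubiquitin the Col-0 pools had a 3′ to 5′ difference of -0.16 ± 0.032 and the C24 pools one of -0.03 ± 0.097, and for GAPDH these were 0.10 ± 0.085 and 0.22 ± 0.23 (SD, n = 3). The part of RNA quality in the results was not tested further.

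Wall genes were called about as often as other probe sets. Of 46 pectin methylesterases and their inhibitors 5 were higher and 4 lower in C24 (19.6% called against 17.9% of all probe sets, median 0.07). AT5G51490 and its neighbour AT5G51500 were lower by log2 differences of -3.62 and -2.05, AT5G51500 reading 4.70, 4.76 and 4.94 in C24 against 6.84, 6.6 and 7.11 in Col-0. ATPMEPCRD read 8.92, 7.53 and 7.99 against 9.12, 9.64 and 9.12 (-1.14, SE 0.24, limma adjusted p = 0.00147). AT3G43270 was higher by 1.03 (9.72, 9.76 and 9.33 against 8.59, 8.57 and 8.55), and AT3G60730 by 0.94. Expansins and xyloglucan endotransglucosylases loosen walls during growth. Of 29 such genes 1 was higher and 5 lower (20.7% called against the same 17.9%, median -0.07). XTH16 read 5.92, 6.41 and 6.0 against 6.92, 6.97 and 7.17 (-0.91, SE 0.17, limma adjusted p = 0.000436), whereas at 8-9 days it was 1.03 higher in C24, and the 2 differences differed from each other (limma adjusted p = 1.41e-05). EXPA4 was lower by a log2 of -0.63 and EXPB3 by -0.72. XTH29, at 4.22, 4.04 and 4.15 against 3.73, 3.75 and 3.64, was the higher one.

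Of 12 measured germin-like genes 1 was higher and 2 lower (median -0.05). Beside AT3G04200 the lower one was AT3G10080 (-0.31), a call that was lost in the fit to the 6 arrays and without some single arrays. The higher one, AT3G04150, read 8.12, 8.30 and 8.24 in C24 against 6.95, 6.43 and 7.36 in Col-0 (1.30, SE 0.15, limma adjusted p = 1.08e-06). It rose in both accessions over the course, from 3.79 to 10.41 in C24 and from 4.21 to 9.78 in Col-0.

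Genes of specialised metabolism, which makes defence and signal compounds, came next. Of 19 terpene synthases 6 were higher and 2 lower (42.1% called against 17.9% of all probe sets, median 0.16), although 15 of them had a mean signal under 5. Beside AT1G48800, AT3G29190 read 9.89, 10.08 and 9.98 in C24 against 8.32, 7.92 and 8.36 in Col-0 (1.79, SE 0.16, limma adjusted p = 7.06e-08), and AT2G23230 read 5.69, 5.61 and 5.97 against 7.74, 7.36 and 7.09 (-1.64, SE 0.15, limma adjusted p = 4.33e-08). With dim probe sets left out, 3 were higher and 1 lower. Of 13 glutathione transferases, which conjugate glutathione to reactive compounds, 4 were higher and 1 lower (38.5% called against 17.9%), and apart from GSTU26 all calls were smaller than 0.5 in size, as for GSTU21 (0.41).

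Of 43 glycosyltransferases of small molecules 5 were higher and 5 lower (23.3% called, near the 17.9% of all probe sets). UGT85A7 read 7.36, 7.64 and 7.30 in C24 against 5.87, 5.93 and 6.18 in Col-0 (1.44, SE 0.11, limma adjusted p = 3.17e-09), and UGT87A2 read 4.61, 4.75 and 4.8 against 6.31, 6.27 and 6.69 (-1.70, SE 0.14, limma adjusted p = 2.01e-08). UGT71C4 was higher by 0.67, and UGT71B1 and UGT88A1 were lower by log2 differences of -1.05 and -1.0. Glucosinolates are the mustard oil precursors of the cabbage family. Of 8 of their genes 1 was higher and 1 lower by the fit to 18 arrays, and 4 were higher by a fit to the 6 arrays of this age. BCAT4, the aminotransferase that starts methionine chain elongation, read 8.80, 9.12 and 8.88 against 8.13, 8.28 and 8.12 (0.76, SE 0.17, limma adjusted p = 0.00249). AT2G25450, an oxygenase that hydroxylates glucosinolate side chains, read 9.06, 8.78 and 9.21 against 10.97, 11.14 and 11.09 (-2.05, SE 0.13, limma adjusted p = 1.87e-10).

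Of 24 cytochrome P450 genes 1 was higher and 2 lower (12.5% called). CYP78A9, which promotes growth of seeds and fruits, read 8.68, 8.96 and 9.05 in C24 against 10.77, 10.27 and 11.07 in Col-0 (-1.81, SE 0.14, limma adjusted p = 7.34e-09). At 8-9 days it was 0.86 higher in C24, and it rose in both accessions over the course, so C24 passed from the higher to the lower side (test of the difference between the stages: -2.67, limma adjusted p = 3.97e-08). CYP71B34 was higher by 0.73 and CYP71B26 lower by a log2 of -0.78.

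Of 23 berberine bridge enzyme-like genes 4 were higher and 1 lower (21.7% called, near the 17.9% of all probe sets, median 0.12), led by AT5G44380 and AT1G30700. Of 13 major latex protein-like genes 3 were higher and 0 lower by limma (1 was lower at an unadjusted p under 0.05), namely AT1G14930, its neighbour AT1G14940 (1.15) and AT4G23680 (1.14). AT1G14940 read 6.91, 7.57 and 7.84 in C24 against 6.44, 5.58 and 6.84 in Col-0. In the list of defensins and thionins, small antimicrobial proteins, 3 of 15 were higher and 0 lower by limma (20.0% called; 0 lower also at an unadjusted p under 0.05). LCR68 read 11.32, 11.37 and 11.18 against 10.35, 10.45 and 10.49 (0.86, SE 0.13, limma adjusted p = 6.59e-05), and THI2.2 was higher by 0.73.

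Of 51 probe sets for MADS box and WRKY transcription factors 3 were higher and 0 lower by limma (5.88% called; 8 higher and 0 lower at an unadjusted p under 0.05), and 38 had a mean signal under 5. AGL19, a MADS box gene known from the control of flowering, read 5.51, 5.46 and 5.55 in C24 against 4.11, 3.96 and 3.98 in Col-0 (1.49, SE 0.14, limma adjusted p = 1.23e-07). AGL18 was higher by 0.40, and AT1G30260, which the gene table also lists as an AGAMOUS-like gene, by 0.64. Of 4 jacalin family genes JAL23 was higher, at 4.32, 4.34 and 4.09 against 3.50, 3.43 and 3.58 (0.74). Of 4 sucrose and starch genes 1 was lower, APL3, a subunit of the enzyme that makes ADP-glucose for starch, at 4.32, 4.33 and 4.34 against 5.13, 4.88 and 5.03 (-0.68, SE 0.09, limma adjusted p = 1.45e-05). The clock gene GI differed by 0.13 (limma adjusted p = 0.542). Of 11 reference genes, chosen as steady in other tissues, AT2G32170 was lower (-0.61) and the median was 0.02.

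**Figure D5:**
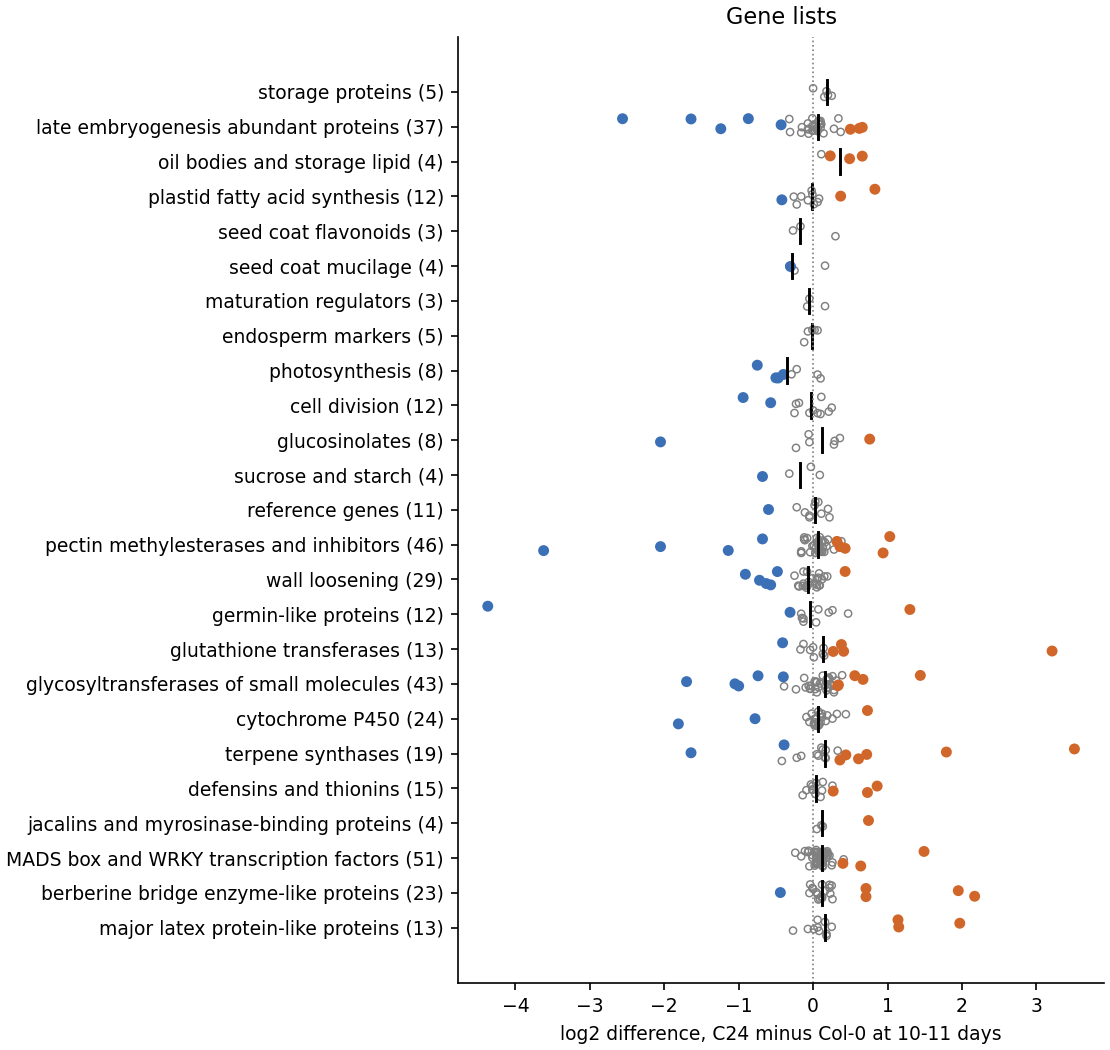
Log2 difference, C24 minus Col-0 at 10-11 days, of each measured member (dots) of the gene lists with 3 or more members, whose number follows the name; filled dots passed an adjusted p of 0.05 (orange higher, blue lower in C24), open dots did not, and black bars are medians. Medians lie near 0 in most lists, and the widest members are AT3G04200 at -4.37 among germin-like proteins and AT1G48800 at 3.51 among terpene synthases.

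Of the probe sets with a listed locus, 1.53% to 1.91% on each of the 5 nuclear chromosomes were called and at least 2-fold different. The 2.04% of all probe sets also covers those without a listed gene, so the shares are not alike. Of the 13513 probe sets with 1 gene, 118 were called and at least 2-fold higher and 132 lower. Of the 69 plastid probe sets 1 was at least 2-fold higher and 10 lower (15.9%). Of 13217 measured loci on the 5 nuclear chromosomes, 234 were called and at least 2-fold different. Whether neighbouring loci were called together more often than this share gives was not tested. Of 12325 pairs of measured loci that are next to each other within 20 kb in the assembly TAIR10.1, both members were called and at least 2-fold different in 5 pairs, in each case in the same direction. These were the pairs AT2G23110 and AT2G23120, AT5G51490 and AT5G51500, AT1G14930 and AT1G14940, AT1G22330 and UGT85A7 (1.03 and 1.44), and AT3G58540 and AT3G58550 (1.64 and 1.54). A second probe set of AT1G22330 differed by 0.43, and without either of replicates 2 and 3 of C24 or replicates 1 and 2 of Col-0 it was not called (0.32 to 0.45). AT3G58550 read 7.37, 8.96 and 9.32 in C24 against 8.50, 5.34 and 7.2 in Col-0, so its groups overlapped, and it was not called without replicate 2 of Col-0 (0.70), replicate 3 of Col-0 (1.63), replicate 2 of C24 (1.34) or replicate 3 of C24 (1.15), nor in the fit to the 6 arrays of this age (limma adjusted p = 0.131).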

How the data were processed

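The authors deposited log2 values made with RMA, according to the submitters' processing notes, and the sources used here give no version of it. RMA (background correction, quantile normalization and 1 summary value for each probe set) brings all arrays to nearly 1 distribution, so a change shared by all transcripts would not be seen. No read depth exists for arrays, and the number of arrays limits the precision. The 6 arrays had medians of 5.87 to 5.90, no arrays were identical, and the median SD of a probe set was 0.114 in C24 and 0.0924 in Col-0.

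After 64 control probe sets were left out, the means of the 6 groups were fitted in limma 3.58.1 (R 4.3.3) on all 18 arrays, and p-values were adjusted over 22746 probe sets (Benjamini-Hochberg, threshold 0.05). The platform's gene table gives 1 gene for 13513 of them (59.4%), several for 503 and none for 8730, which stay unnamed here. The procedure was also run on simulated arrays in which probe sets varied independently. That checks the code and cannot show how the procedure does on these pools.

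The comparison and the gene lists were chosen with earlier results of these data known, and lists were edited after the files were seen. Lists go by locus or by symbol and synonym, because the gene table holds no product descriptions. Genes were named by rule (probe sets with 1 gene): the 14 highest and 14 lowest called differences with groups apart, in each list, up to 2 called members at either end (where none was called, that of smallest p), and the 5 highest and 5 lowest in each difference between stages. The genes described as widest at 10-11 days, plastid genes, the neighbours AT1G22330, AT3G58540 and AT3G58550, and OLEO3, COR47, AT4G38410, PSAN, PSAE-1, ATPMEPCRD, EXPA4, UGT88A1, AGL18 and AT4G23680 were added after their values were seen. Lists of abscisic acid and gibberellin metabolism and of salicylic acid defence had 0 measured members, and promoter motifs were not analysed here. Alternatives were other fits, scalings and filters, a replicate block, and leaving out each array.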

Additional observations from a re-analysis of the deposited data

Results flagged for a closer look

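The genes below showed the widest changes of the accession difference between 10-11 days and another stage, by limma's test of the difference between stages; each value is the difference at 10-11 days minus that at the other stage.

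Against 8-9 days the lowest values were those of AT1G62210 (-4.27), AT5G41250 (-3.0), CYP78A9 (-2.67), AT2G19320 (-2.59) and AT4G14980 (-2.41). AT1G62210 stood at 12.12 in C24 and 7.87 in Col-0 at 8-9 days, and at 12.78 and 12.80 at 10-11 days, so the accessions were level at this age. AT5G41250 had means of 10.08 and 7.07 in C24 at the 2 ages and of 4.61 in Col-0 at both. AT2G19320 and CYP78A9 changed sides, from 1.03 and 0.86 higher in C24 at 8-9 days to differences of -1.56 and -1.81. AT4G14980 stood at 4.67 and then 7.39 in Col-0, against 3.94 and 4.26 in C24.

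The highest values against 8-9 days were those of AT1G11590 (3.14), AT2G15325 (3.01), AT1G75280 (2.75), AT2G43660 (2.60) and AT3G43960 (2.55). Each of the 5 was higher in Col-0 at 8-9 days. AT1G11590 was at 6.64 in Col-0 and 3.57 in C24 then, and at 3.58 and 3.64 at 10-11 days, near the floor in both. AT3G43960, of the cysteine protease family, turned from -1.44 to 1.12, with 7.66, 7.79 and 7.53 in C24 against 6.77, 6.51 and 6.33 in Col-0. AT2G15325 read 6.63, 5.18 and 4.97 in Col-0 at 10-11 days, with replicate 1 well above the others.

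Against 12-13 days the highest values were those of AT2G43535 (2.58), AT3G25855 (2.18), BGLU19 (2.12), AT5G49350 (1.90) and AT5G51500 (1.88). BGLU19, a beta-glucosidase gene, stood at 6.77 in C24 and 5.67 in Col-0 at 10-11 days and at 9.29 and 10.31 at 12-13 days, so C24 was first the higher and then the lower. AT2G43535 and AT3G25855 changed sides in the same sense, from 0.80 to -1.78 and from 1.48 to -0.71. AT5G49350 differed by 1.42 and then by -0.49, which was not called. AT5G51500 was lower in C24 at both ages, by -2.05 and -3.93.

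The lowest were those of AT2G27570 (-1.84), AT5G38780 (-1.73), AT3G20270 (-1.65), EXO (-1.64) and AT5G25560 (-1.52). AT5G38780, of the family of carboxyl methyltransferases that includes the jasmonate methyltransferase JMT, read 5.84, 5.38 and 6.31 in C24 against 3.85, 3.63 and 3.83 in Col-0 at 10-11 days, and stood at 7.56 against 3.76 at 12-13 days. AT2G27570 differed by 1.15 and then by 2.99. AT3G20270 differed by -2.13 and by -0.48. AT5G25560 differed by -0.37 at 10-11 days, which was not called, and by 1.15 at 12-13 days.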

How the results depend on the processing

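Limits: 3 pools per accession and stage, an array designed on Col-0, log2 values that flatten near the floor, and 8730 probe sets without a gene name bound these results. Over all alternatives 2936 to 4243 probe sets were called (4074 in the reported fit), with 195 to 230 at least 2-fold higher and 230 to 271 lower. The fit to the 6 arrays of this age gave 4223, of which 3740 were shared; of the 131 probe sets named, it lost AT2G22900, AT3G10080, AT5G44630, OLEO3 and AT3G58550 and gained ALC, AT1G75280 and AT5G25560. AT1G75280 (0.46, limma adjusted p = 0.0535) was also gained without dim probe sets, with reference scaling and with a variance trend. Reference scaling lost AT2G22900, AT3G10080 and AT5G44630, and the variance trend lost AT3G10080. DFR was gained without dim probe sets, after quantile normalization and with the variance trend, and AT2G43660 after quantile normalization. The difference from 12-13 days was called in 754 to 1398 probe sets when 1 array was left out (1346 reported), and that from 8-9 days in 1050 to 1364 (1488 reported). The position difference between accessions ranged from 0.058 to 0.116 when 1 array was left out. AT1G62210, which did not differ at 10-11 days (-0.02), turned to 0.03 after quantile normalization and to 0.01 when scaled to reference genes, and ranged from -0.07 to 0.02 without 1 array. Same-numbered pools of the accessions deviated together with r of 0.116, -0.0882 and 0.112, so the numbers were not taken as pairs. With a replicate block 4093 probe sets were called, 3941 of them shared with the reported fit, and among the genes named only AT2G22900 lost its call (adjusted p = 0.0547). Without 1 array, calls of the germin-like gene AT3G10080 (-0.31 reported, -0.21 to -0.34 where lost), GSTU18 (-0.41, then -0.33 to -0.4), the terpene synthase AT5G44630 (-0.39, then -0.23 to -0.35) and the berberine bridge enzyme-like AT1G30710 (-0.44, then -0.32) were lost in at least 1 case each, beside those given in the report, while DFR (-0.32 without replicate 2 of C24, -0.35 without replicate 3 of Col-0) and AT2G43660 (-0.41 without replicate 2 of C24) were gained. The promoter motif description was not run.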

Other observations

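An older set of control probe sets on the same 6 arrays gave 3′ to 5′ actin differences of 1.49, 1.22 and 1.14 in Col-0 and 0.39, 0.78 and 0.10 in C24, so both actin sets had the lower values in C24. The older ubiquitin set went the other way, with 0.91 ± 0.13 in C24 against 0.52 ± 0.02 in Col-0. For the older GAPDH set C24 had 1.44 ± 0.21 and Col-0 1.28 ± 0.11 (SD, n = 3).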
